A study of Mus musculus with 6 samples.

Results

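Genes of NF-kB feedback and cell survival were followed in RAW264.7 cells, together with Malt1, whose protein passes the signal on. This macrophage-like mouse line grew from a tumour induced by Abelson leukaemia virus. The genes are Tnfaip3, Tnip1, Tnip3, Zc3h12a, Birc2, Birc3, Traf1, Traf2, Cflar and Malt1. The members were taken from the gene count table by matching its Ensembl identifiers to these symbols, which gave 10 of the 24379 genes listed. The labels put 3 RNA sequencing libraries in a group given HFCS, a corn syrup rich in free fructose, and 3 in a group called WT, here the control, all with a time of 18 h. The HFCS dose reads 140 mM in titles and treatment labels and 170 mM in source names, so which was used is uncertain. What the control cells received, with or without an osmotic control, is not stated in these sources, and the labels do not say whether replicates came from separate cultures.

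Total counts ran from 13108485 to 15340255 per library. CPM is a gene's count scaled to the same library size for every library. For the floor of 3 counts, 0.196 to 0.229 CPM, that size was the total count. For the CPM of genes and marker sums below, it was the total multiplied by a TMM factor, unless library size alone is named. This scaling factor was 1.02 to 1.03 in HFCS-labelled libraries and 0.968 to 0.977 in controls, so it lowers CPM with HFCS and raises it in controls. Principal component 1 took up 70.0% of the variance of log2 CPM and parted the groups. On component 2 (11.8%), control replicate 1 lay at 29.3 and the other control libraries at -14.2 and -13.4, and HFCS replicate 3 at -18.9 with the other HFCS-labelled libraries at 8.89 and 8.23. Akr1b3, aldose reductase, which is known to rise in concentrated medium, averaged 208 ± 12.0 CPM with HFCS and 7435 ± 381 CPM in controls (SD, n = 3 each). Every direction below therefore rests on the labels as given. Of 10 macrophage markers 9 were measured, 7 of them higher and 2, Csf1r and Cd68, lower with HFCS, and their sum was 2521 to 2630 CPM with HFCS and 1957 to 2031 CPM in controls. The T cell markers measured summed to at most 0.734 CPM in any library, those of B cells, neutrophils, dendritic cells and fibroblasts each to at most 4.87 CPM, and the 1 epithelial marker measured to at most 0.208 CPM. The endothelial markers summed to 1.78 to 2.03 CPM with HFCS and 4.16 to 5.20 CPM in controls, with Pecam1 and Cdh5 lower. Kdr and Tek were not tested, and averaged 0.0429 and 0.535 CPM with HFCS and 0.143 and 0.332 CPM in controls. The dendritic cell sum was higher with HFCS without overlap, at 2.60 to 3.05 CPM against 0.918 to 2.43 CPM in controls. The part of these shifts in the results below was not tested, and in bulk RNA fewer cells of a kind and less RNA per cell cannot be told apart.

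NF-kB is a family of transcription factors held in the cytoplasm by IkB proteins and released when receptors for tumour necrosis factor (TNF), Toll-like receptors or antigen receptors build chains of ubiquitin on adaptor proteins. Several of its target genes feed back on this step: A20, ABIN and Regnase-1 proteins remove the signal or its messages. Others, the cellular inhibitors of apoptosis (cIAPs), TRAF adaptors and cFLIP, decide whether TNF receptors signal for survival or for caspase-dependent death. In macrophages the same circuit sets how long an inflammatory response lasts.

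The 10 genes did not move as 1 block. Birc3, Traf1 and Traf2 were higher in the HFCS-labelled libraries, by 2.74-fold, 2.14-fold and 1.74-fold. Malt1 was lower by 1.46-fold and Tnip1 by 1.23-fold. Tnfaip3, Tnip3, Zc3h12a, Birc2 and Cflar did not pass the test, the quasi-likelihood test of edgeR with p-values adjusted by Benjamini-Hochberg over 14360 genes and a threshold of 0.05. All 10 passed the filter on low counts, and the smallest count of any member in any library was 209. Thus 3 members rose and 2 fell, where 22.4% of all tested genes rose, 22.5% fell and 44.9% passed in either direction. The split over all genes depends on the scaling: with library size alone 60.2% of calls were higher, against 49.99% here, and Tnip1 was no longer called. Of the members, 2 passed with a fold of at least 2 (10.6% of all genes did), and 7 had groups that did not overlap in TMM-scaled CPM (54.5% of all genes). Among these 7, Birc2 and Cflar overlapped with library size alone. The median log2 fold change of the 10 members was -0.04, beside -0.0045 over all genes. It changed sign to 0.04 with library size alone and to 0.01 without HFCS replicate 1, and was -0.09 without control replicate 1. The median size of the log2 fold change, without its sign, was 0.19 among members and 0.33 among all genes.

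**Figure D1:**
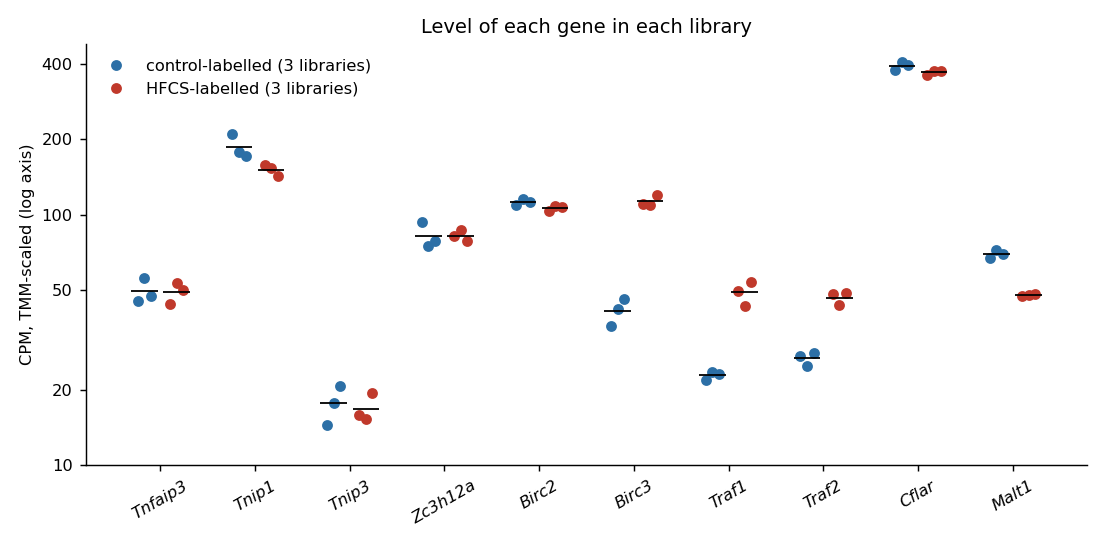
CPM of the 10 genes on a log axis, with 1 point for each of the 3 HFCS-labelled and 3 control-labelled libraries and a bar at each group's mean. The HFCS-labelled points of Birc3 (109 to 120 CPM) lie far above the controls (36.0 to 45.9 CPM), those of Malt1 (47.5 to 48.2 CPM) below them (67.4 to 72.2 CPM), and those of Tnfaip3, Tnip3 and Zc3h12a among them.

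Tnfaip3 encodes A20, an enzyme that edits ubiquitin chains on RIPK1 and other adaptors, and Tnip1 and Tnip3 encode ABIN proteins, which bind ubiquitin and help A20. Their upstream sequences are shown because these 3 were the members whose promoter window held a match to the NF-kB consensus site. Windows came from RefSeq (GRCm38.p6), from 250 bases before to 50 after the annotated start, and 9 of the 10 members had one, 11 windows in all. The consensus was searched on both strands as a 10-base pattern. It reads GGG, A or G, any base, A or T, C or T, C or T, and CC. This pattern was found in 4.51% of 32851 windows of that length and in 5.14% of 27025 genes. The 150 bases before each start are printed 5′ to 3′ in the gene's direction, with consensus matches in capitals. They lie at chr10:19015411-19015560 (minus strand) for Tnfaip3, chr11:54962941-54963090 (minus strand) for Tnip1 and chr6:65590248-65590397 (plus strand) for Tnip3.
Tnfaip3: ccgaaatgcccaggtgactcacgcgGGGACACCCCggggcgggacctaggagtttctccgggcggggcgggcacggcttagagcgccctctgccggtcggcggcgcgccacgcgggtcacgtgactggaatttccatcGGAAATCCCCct
Tnip1: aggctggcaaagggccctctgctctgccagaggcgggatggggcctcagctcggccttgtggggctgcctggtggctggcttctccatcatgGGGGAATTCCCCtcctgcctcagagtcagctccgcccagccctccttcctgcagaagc
Tnip3: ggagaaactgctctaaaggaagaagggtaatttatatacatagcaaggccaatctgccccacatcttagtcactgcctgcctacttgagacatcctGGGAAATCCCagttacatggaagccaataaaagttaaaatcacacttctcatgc
In Tnfaip3 the matches lie 125 to 116 and 12 to 3 bases before the start. Tnip1 holds 3 overlapping matches 58 to 47 bases before it, and Tnip3 holds 1, read on both strands, 54 to 45 bases before it. The start shown for Tnfaip3 lies 247 bases inside the deposited gene, and the window of its other RefSeq start held no match. The RefSeq start of Tnip3 lies 65085 bases inside the deposited gene, so transcripts from other starts add to its count, and a match is no evidence of binding.

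Tnfaip3 (ENSMUSG00000019850, mm10 chromosome 10, 19000910 to 19015657) was measured at 44.1, 53.4 and 49.9 CPM in HFCS replicates 1 to 3 and at 45.4, 56.1 and 47.4 CPM in control replicates 1 to 3. The groups overlapped throughout. The log2 fold change was -0.01 ± 0.10 (SE), with a 95% interval of the fold from 0.844 to 1.16 and an edgeR quasi-likelihood p, adjusted by Benjamini-Hochberg, of 0.93. The interval therefore holds neither a fall nor a rise of the size seen for Traf2. The sign of this small difference changed between settings, from -0.07 to 0.08.

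Tnip1, which encodes ABIN1 (ENSMUSG00000020400, chromosome 11, 54910785 to 54962917), was measured at 157, 154 and 143 CPM with HFCS and at 209, 177 and 171 CPM in controls. No HFCS-labelled library reached the lowest control, and control replicate 1 was the highest of all. Tnip1 fell by 0.30 ± 0.08 on the log2 scale, with an edgeR quasi-likelihood p, adjusted by Benjamini-Hochberg, of 0.015. The call was lost without HFCS replicate 2 (adjusted p = 0.052), without HFCS replicate 3 (adjusted p = 0.075) and with library size alone (log2 fold change -0.22, adjusted p = 0.055), in the same edgeR test. Without control replicate 1 the log2 fold change was -0.20 and the call held.

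Tnip3, the ABIN3 gene (ENSMUSG00000044162, chromosome 6, 65525313 to 65634040), gave 15.8, 15.3 and 19.4 CPM with HFCS and 14.5, 17.7 and 20.8 CPM in controls. These values overlapped. Its log2 fold change was -0.07 ± 0.15, an interval from -0.41 to 0.27, and did not pass (edgeR, adjusted p = 0.74). Zc3h12a (ENSMUSG00000042677, chromosome 4, 125118423 to 125127840) encodes Regnase-1, an RNase that cuts inflammatory messages at stem-loops. It was measured at 81.9, 86.5 and 78.3 CPM with HFCS and at 93.0, 74.9 and 78.4 CPM in controls, so that the HFCS-labelled values lay inside the control range. The fold was 1.001 with a 95% interval from 0.872 to 1.15 (edgeR, adjusted p = 0.99).

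Within libraries, both count ratios read for the A20 group overlapped between HFCS and controls. The count ratio of Tnfaip3 to Tnip1 was 0.281, 0.348 and 0.350 with HFCS and 0.217, 0.317 and 0.278 in controls (exact two-sided permutation p = 0.2, or 0.24 after adjustment over the 6 pairs of genes compared). That of Tnip3 to Tnip1 was 0.101, 0.0998 and 0.136 against 0.0694, 0.1001 and 0.122 (exact permutation p = 0.5). With 3 libraries against 3 the smallest p that such a test can give is 0.1, before adjustment.

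Birc2 and Birc3 encode cIAP1 and cIAP2, ubiquitin ligases that mark RIPK1 after TNF binding and, in resting cells, mark the kinase NIK for destruction. The genes are neighbours on chromosome 9, with 11634 bases between Birc2 (7818227 to 7837064) and Birc3 (7848699 to 7873186) and no listed gene in that gap. Both are read from the minus strand. Birc3 is shown with the TRAF genes below it, as the members that rose, in the 150 bases before the RefSeq start: chr9:7873171-7873320 for Birc3, chr2:34961773-34961922 for Traf1 and chr2:25546941-25547090 for Traf2, all on the minus strand of GRCm38.p6. No capitals appear, since these letters hold no consensus match.
Birc3: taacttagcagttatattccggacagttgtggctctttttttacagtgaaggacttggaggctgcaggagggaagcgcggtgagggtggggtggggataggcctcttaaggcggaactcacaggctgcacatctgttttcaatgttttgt
Traf1: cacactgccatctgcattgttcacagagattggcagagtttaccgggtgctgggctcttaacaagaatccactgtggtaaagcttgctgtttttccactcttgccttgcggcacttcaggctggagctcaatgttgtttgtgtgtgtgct
Traf2: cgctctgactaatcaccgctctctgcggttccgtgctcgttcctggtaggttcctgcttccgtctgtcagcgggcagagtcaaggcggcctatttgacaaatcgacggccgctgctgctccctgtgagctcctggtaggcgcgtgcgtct
The deposited ends of Traf1 and Traf2 are the same bases as these starts, and that of Birc3 lies 16 bases away. Elements outside the window were not searched.

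Birc3 (ENSMUSG00000032000) was measured at 110.5, 109 and 120 CPM in HFCS-labelled libraries and at 36.0, 42.1 and 45.9 CPM in controls. Every HFCS-labelled value lay above every control, and the SD within a group was 5.64 CPM with HFCS and 4.99 CPM in controls. Birc3 rose by 1.45 ± 0.09 on the log2 scale, a fold of 2.74 (95% interval 2.37 to 3.16), with an edgeR quasi-likelihood p, adjusted by Benjamini-Hochberg, of 1.6e-06. Birc2 (ENSMUSG00000057367), its neighbour, gave 104, 108 and 107 CPM with HFCS against 109, 116 and 112 CPM in controls. Here every HFCS-labelled library was slightly below every control in TMM-scaled CPM, while the groups overlapped with library size alone. The log2 fold change of -0.08 ± 0.06 did not pass (edgeR, adjusted p = 0.31), and its interval reached from -0.22 to 0.06.

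The balance of the cIAP messages was also read within each library, where no scaling between libraries enters. There were 1.07, 1.01 and 1.12 Birc3 counts per Birc2 count with HFCS and 0.329, 0.364 and 0.408 in controls. The ratio was 2.91-fold higher with HFCS, and the groups did not overlap (two-sided exact permutation p = 0.1, the smallest possible, 0.15 adjusted over 6 pairs). Per kilobase of exon, Birc3 made up 49.3 ± 1.28% of the pair with HFCS and 25.1 ± 2.03% in controls (SD, n = 3 each). The pair shares 65 stretches of 50 bases, 1.42% of those of Birc2 and 1.28% of those of Birc3, so only reads from those stretches could stem from either gene. How the counting treated such reads is not stated.

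**Figure D2:**
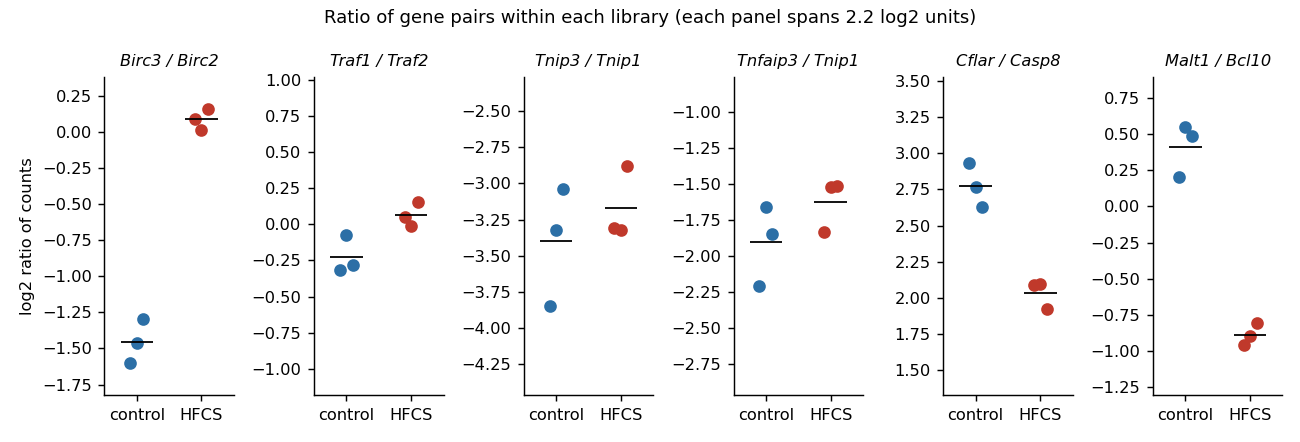
Ratio of counts within each library for 6 pairs of genes, on log2 axes that start at different levels but span the same range, with 3 HFCS-labelled and 3 control-labelled points per pair and bars for the mean. The groups do not overlap for Birc3 over Birc2, Traf1 over Traf2, Cflar over Casp8 and Malt1 over Bcl10, and they overlap for Tnip3 over Tnip1 and Tnfaip3 over Tnip1.

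TRAF2 brings the cIAPs to TNF receptors, and TRAF1, which lacks the RING domain of the other TRAF proteins, joins it in mixed trimers at several receptors. Traf1 (ENSMUSG00000026875, chromosome 2, 34941750 to 34961772) was measured at 49.8, 43.2 and 54.0 CPM with HFCS and at 21.99, 23.6 and 23.2 CPM in controls. The control values lay within an SD of 0.846 CPM, and the HFCS-labelled ones spread more widely, with an SD of 5.42 CPM, all above them. Traf1 rose by 1.096 ± 0.10 on the log2 scale, 2.14-fold (95% interval 1.83 to 2.50), with an edgeR quasi-likelihood p, adjusted by Benjamini-Hochberg, of 1.7e-05.

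Traf2 (ENSMUSG00000026942, chromosome 2, 25517982 to 25546940) gave 48.1, 43.5 and 48.5 CPM with HFCS and 27.4, 24.9 and 28.2 CPM in controls. The groups did not overlap, and replicate 2 was the lowest of both. Traf2 rose by 0.80 ± 0.09 on the log2 scale, 1.74-fold (95% interval 1.51 to 2.004, edgeR's adjusted p = 6.7e-05). The count ratio of Traf1 to Traf2 was 1.03, 0.994 and 1.11 with HFCS against 0.803, 0.950 and 0.822 in controls. It was 0.29 higher on the log2 scale without overlap (exact permutation p = 0.1, 0.15 adjusted over 6 pairs), so the larger rise of Traf1 could not pass a test of this size. Traf1 and Traf2 share no stretch of 50 exonic bases.

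Cflar encodes cFLIP, a catalytically inactive relative of caspase-8 that keeps the latter from full activity at death receptors. The gene (ENSMUSG00000026031, chromosome 1, 58711508 to 58758884) was measured at 361, 372 and 374 CPM with HFCS and 379, 405 and 394 CPM in controls. The HFCS-labelled libraries all lay below the controls by a small margin in TMM-scaled CPM, and the groups overlapped with library size alone. The log2 fold change was -0.09 ± 0.06 with an interval from -0.22 to 0.04 and did not pass (edgeR, adjusted p = 0.26). The annotation lists 13 transcripts of Cflar, and the long and short forms of cFLIP cannot be told apart from gene counts.

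Its partner Casp8, caspase-8, rose from 57.5 ± 7.26 CPM in controls to 90.2 ± 7.52 CPM with HFCS (log2 fold change 0.65 ± 0.10, edgeR's adjusted p = 0.00048). Cflar counts per Casp8 count were 4.26, 4.27 and 3.78 with HFCS and 7.65, 6.80 and 6.19 in controls. The groups did not overlap, and the ratio was lower by 0.74 on the log2 scale with HFCS, written as a difference of -0.74 (two-sided exact permutation p = 0.1, 0.15 adjusted over 6 pairs).

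Malt1 encodes a paracaspase that joins BCL10 and a CARD protein in a signalling filament and cuts A20, Regnase-1 and CYLD proteins. The gene (ENSMUSG00000032688, chromosome 18, 65430962 to 65478823) was measured at 47.5, 47.7 and 48.2 CPM with HFCS and at 67.4, 72.2 and 69.7 CPM in controls. All HFCS-labelled values lay below the lowest control. Their coefficient of variation, 0.817%, was the smallest of any member, but counting error alone would give more at 639 to 762 counts. Malt1 fell by 0.54 ± 0.07 on the log2 scale (95% interval -0.70 to -0.39, edgeR's adjusted p = 0.00016). Bcl10, its partner, rose from 52.5 ± 5.20 to 88.6 ± 3.96 CPM (log2 fold change 0.75 ± 0.09, edgeR's adjusted p = 6.1e-05). The count ratio of Malt1 to Bcl10 was 0.514, 0.537 and 0.571 with HFCS and 1.15, 1.46 and 1.40 in controls, a difference of -1.30 on the log2 scale without overlap (exact permutation p = 0.1, 0.15 adjusted over 6 pairs). Per kilobase of exon, Malt1 made up 12.0 ± 0.563% of the pair with HFCS and 25.2 ± 2.38% in controls. These shares depend on the length used, as the merged exons of Malt1 span 18.04 kilobases and its longest coding transcript 5.331.

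**Figure D3:**
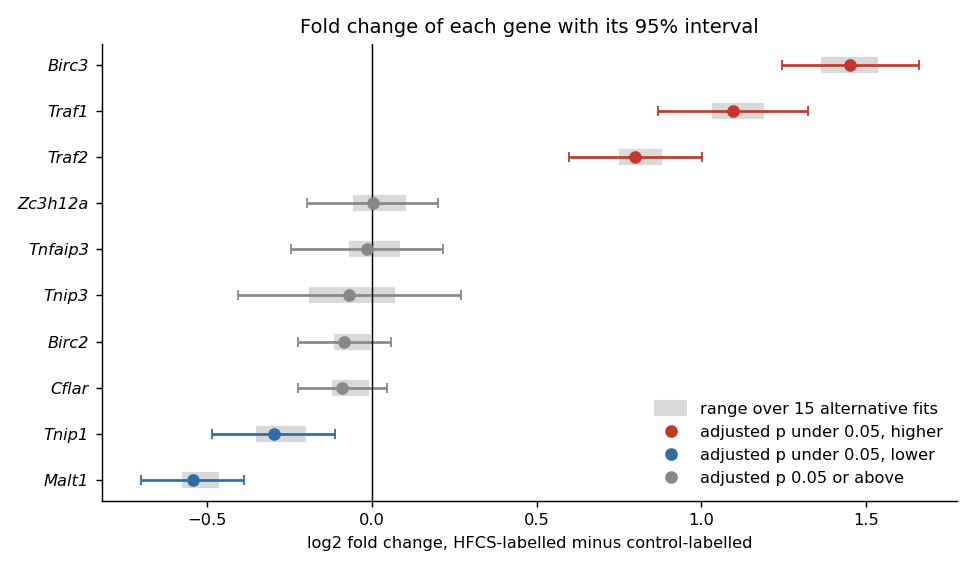
Log2 fold change of each gene, HFCS-labelled minus control-labelled, with its 95% interval, beside the range over 15 alternative fits. Birc3 (1.36 to 1.54), Traf1 (1.03 to 1.19) and Traf2 (0.75 to 0.88) stayed above 0 and Malt1 (-0.58 to -0.46) below it in each of those fits, and the ranges of Tnfaip3, Tnip3 and Zc3h12a hold 0.

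To compare members with each other, CPM was divided by the length of each gene's merged exons. On this scale Tnip1 was the highest in both groups, at 42.7 ± 2.10 CPM per kilobase with HFCS and 52.5 ± 5.83 in controls. Cflar and Zc3h12a came next and overlapped in both groups, at 29.1 ± 0.554 and 28.5 ± 1.42 with HFCS and 31.0 ± 1.06 and 28.5 ± 3.34 in controls. With HFCS the order went on with Birc2 (23.2 ± 0.505) and Birc3 (22.6 ± 1.13), which overlapped, then Traf2 (9.16 ± 0.547), Tnfaip3 (6.80 ± 0.652) and Traf1 (5.56 ± 0.615), the last pair overlapping, Malt1 (2.65 ± 0.0217) and Tnip3 (1.54 ± 0.203). In controls it was Birc2 (24.6 ± 0.703), Birc3 (8.25 ± 0.996) and Tnfaip3 (6.87 ± 0.786), the last pair overlapping, then Traf2 (5.26 ± 0.337), Malt1 (3.87 ± 0.135), Traf1 (2.60 ± 0.0959) and Tnip3 (1.62 ± 0.290). Malt1 thus stood above Traf1 in controls and below it with HFCS. The order rests on the length used: per kilobase of the longest coding transcript, Cflar (56.1) was above Tnip1 (50.8), Birc3 (38.9) above Birc2 (31.9) and Traf1 (14.3) above Tnfaip3 (11.1), with HFCS. On that scale in controls, Birc2 (33.8) was above Zc3h12a (29.8) and Malt1 (13.1) above Tnfaip3 (11.2), each pair overlapping. Malt1 was also above Traf2 (8.81), without overlap. Malt1 is the 1 member whose deposited coordinates differ from those of GENCODE M21, so its exon length of 18.04 kilobases is uncertain.

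The genes around these members were taken from 9 lists of pathway partners, 113 genes in all, of which 103 were tested. Of these, 39 rose, 15 fell and 49 did not pass, with a median log2 fold change of 0.18. That is 52.4% past the threshold, beside 44.9% of all tested genes. Up to 2 of the highest and 2 of the lowest called genes of each list are named among those with a mean of at least 1 CPM over the libraries, with adjusted p-values from edgeR's quasi-likelihood test.

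Among TNF family ligands and receptors 11 of 16 tested genes rose and 1 fell (median log2 fold change 0.46). Tnf, a ligand whose receptors signal through these adaptors, rose from 22.6 ± 2.97 to 64.3 ± 6.44 CPM (log2 fold change 1.503 ± 0.11, adjusted p = 4.6e-06). Ltbr, the lymphotoxin beta receptor, which binds TRAF proteins, rose from 19.6 ± 4.31 to 43.1 ± 1.49 CPM (1.14 ± 0.14, adjusted p = 1e-04). The 1 gene that fell was Tnfrsf11a, the receptor RANK, from 91.5 ± 2.06 to 70.4 ± 6.36 CPM (-0.38 ± 0.08, adjusted p = 0.0029). Among receptor adaptors and kinases 5 of 19 rose and 3 fell (median 0.19). Ikbke, an IKK-related kinase, rose from 107 ± 7.28 to 250.04 ± 0.806 CPM (1.23 ± 0.07, adjusted p = 5.8e-07), and Azi2, an adaptor of that kinase, rose by 0.73 on the log2 scale. Traf5, a relative of Traf2, was called lower at 4.87 ± 0.276 against 8.22 ± 2.22 CPM (-0.75 ± 0.21, adjusted p = 0.014), a call lost without control replicate 2 (-0.56, adjusted p = 0.063). Map3k8, the kinase TPL2, fell by 0.33.

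Of the ubiquitin writers and erasers that act on the same adaptors as A20, 3 of 15 rose and 1 fell (median 0.14, or 0.09 without control replicate 1 and 0.22 with library size alone), which is 26.7% past the threshold. Otud7b, a deubiquitinase known as Cezanne, rose from 66.8 ± 2.995 to 108 ± 6.95 CPM (0.70 ± 0.08, adjusted p = 4.3e-05). Rnf11, a ligase that works with A20, rose by 0.31. Rbck1, a subunit of the linear ubiquitin ligase, was called lower at 141 ± 5.84 against 166 ± 10.1 CPM (-0.24 ± 0.07, adjusted p = 0.017). That call was lost without HFCS replicate 2, HFCS replicate 3 or control replicate 3 (adjusted p 0.099, 0.075 and 0.061), and without HFCS replicate 2 only 2 genes of the list passed. With library size alone or with no filter on low counts, no gene of the list was called lower.

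Of the CARD and BCL10 partners of Malt1, 7 were tested, 1 rose (Bcl10) and 4 fell (median -0.38, or -0.06 with no filter on low counts, where 9 were tested). Card14, a scaffold that can recruit BCL10 and MALT1, fell from 52.5 ± 3.90 to 17.3 ± 1.70 CPM (-1.60 ± 0.11, adjusted p = 1.7e-06). Of its exonic bases 20.7% overlap Sgsh on the other strand. Reads there could be told apart only if the counting used the strand, which is not stated. Prkcd, protein kinase C delta, fell from 357 ± 30.7 to 229.5 ± 16.5 CPM (-0.64 ± 0.08, adjusted p = 0.00013).

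In the wider family of inhibitors of apoptosis and their antagonists 2 of 9 rose and 2 fell (median 0.02, or -0.01 with upper-quartile scaling, and from -0.08 without control replicate 1 to 0.21 without control replicate 2). The risers were Naip5 (0.73) and Naip2 (0.43), cytosolic sensors of bacterial proteins whose near-identical copies make their counts uncertain. Birc5, the mitotic protein survivin, fell from 109 ± 8.31 to 73.0 ± 6.44 CPM (-0.58 ± 0.09, adjusted p = 0.00036). Diablo, a mitochondrial antagonist of these inhibitors, was called lower (-0.41 ± 0.14, adjusted p = 0.038), but not when any of 4 libraries was left out: HFCS replicate 1 (adjusted p = 0.13) or 2 (0.14), or control replicate 2 (0.079) or 3 (0.15). The call of Diablo was also lost with DESeq2, with library size alone and with no filter on low counts. Of Diablo's exonic bases 19.3% overlap Gm49027 on the same strand. Among death receptor caspases and necroptosis genes 3 of 10 rose and 1 fell (median 0.17). Fadd, the adaptor that brings caspase-8 to death receptors, rose from 6.11 ± 1.81 to 21.1 ± 2.22 CPM (1.79 ± 0.19, adjusted p = 4.6e-05). Bid, a substrate of caspase-8, was called lower by a small amount (-0.24, adjusted p = 0.013), a call lost without HFCS replicate 1, HFCS replicate 3 or control replicate 3 (adjusted p 0.077, 0.068 and 0.056). Bid was not called either with library size alone or with no filter on low counts. Of Bid's exonic bases 17.7% overlap Bcl2l13 on the other strand.

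Among the RNA decay partners of Regnase-1, 2 of 12 rose and 3 fell (median 0.03, about 0 with upper-quartile scaling, 0.11 with library size alone and 0.13 without control replicate 1). Arid5a, which protects messages from Regnase-1, rose from 5.14 ± 1.23 to 18.8 ± 0.785 CPM (1.87 ± 0.17, adjusted p = 1.4e-05). Zfp36, tristetraprolin, which destabilises Tnf mRNA, rose from 23.8 ± 4.19 to 39.8 ± 3.12 CPM (0.74, adjusted p = 0.00092). Rc3h1, roquin, which binds the same stem-loops, fell from 328 ± 24.2 to 219.98 ± 9.84 CPM (-0.57 ± 0.07, adjusted p = 0.00013). Zfp36l1 was called lower (-0.46, adjusted p = 0.019), but not without HFCS replicate 1 (0.059) or HFCS replicate 3 (0.084), and 55.9% of its exonic bases overlap an antisense gene. Without HFCS replicate 3 the list had 3 genes past the threshold and without control replicate 1 it had 8.

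Of the messages known as Regnase-1 targets 8 were tested and 4 rose (median 0.77, or 0.48 without HFCS replicate 3 and 0.42 with no filter on low counts, where more genes were tested). Il1b, interleukin-1 beta, held 294 counts in the HFCS-labelled libraries together and 15 in the controls (6.58 ± 1.25 against 0.354 ± 0.307 CPM, log2 fold change 4.18 ± 0.40, adjusted p = 2e-05). An antisense gene overlaps it. Il6, interleukin-6, named after its values were seen because its mean of 0.845 CPM over the libraries kept it from the named genes, was also called (adjusted p = 0.00045), with 74 counts against 2. Its ratio of counts for equal library sizes was 35.1, with an exact binomial 95% interval from 9.37 to 295 that covers counting error only. Egln3, an oxygen-sensing hydroxylase, rose from 5.78 ± 0.328 to 14.8 ± 2.97 CPM (1.36 ± 0.17, adjusted p = 0.00013). Among NF-kB subunits and IkB inhibitors 9 of 11 rose (median 1.03), the highest being Bcl3, a nuclear IkB protein, at 54.8 ± 4.39 against 14.2 ± 3.67 CPM (1.95 ± 0.16, adjusted p = 7e-06) and Nfkbie, IkB epsilon, at 24.1 ± 3.41 against 7.38 ± 0.893 CPM (1.71 ± 0.15, adjusted p = 1e-05). Members known as NF-kB targets differed among themselves. Birc3 and Traf1 rose 2.74-fold and 2.14-fold, while the intervals of Tnfaip3 and Zc3h12a, given above, had upper ends of 1.16-fold and 1.15-fold.

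**Figure D4:**
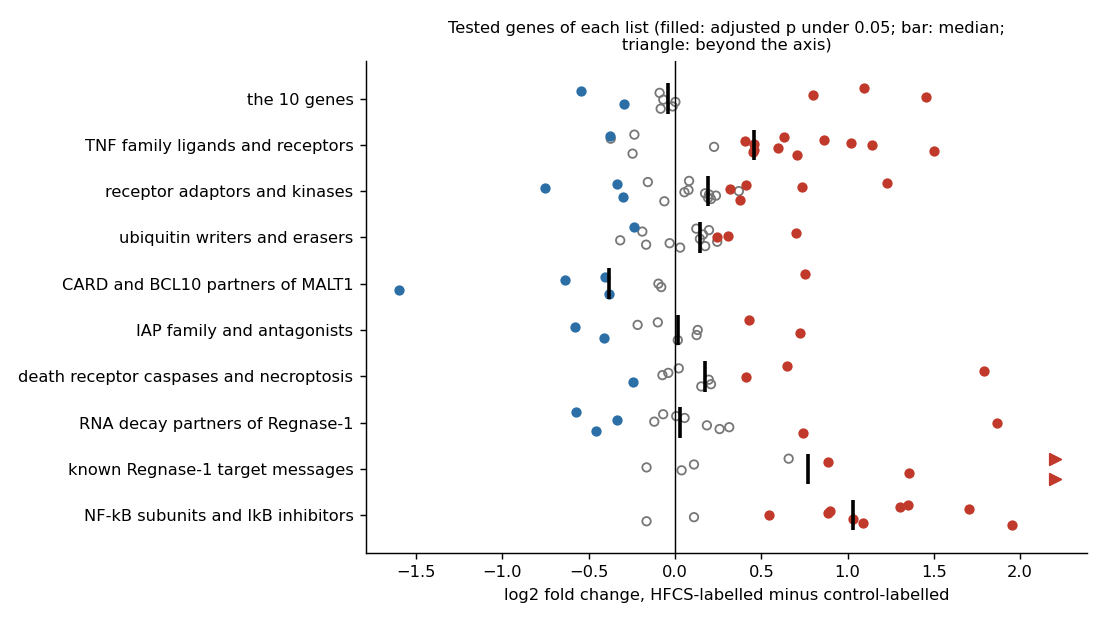
Log2 fold change, HFCS-labelled minus control-labelled, of every tested gene in the 9 lists and of the 10 members, 1 line of points per list, with filled points for genes past the threshold, a bar at the median and triangles for Il1b and Il6, which lie beyond the axis. The medians run from -0.38 for the CARD and BCL10 partners to 1.03 for the NF-kB subunits and IkB inhibitors, with the members at -0.04.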

How the data were processed

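RNA sequencing of 6 libraries of RAW264.7 cells, 3 labelled HFCS and 3 control, was analysed from the table of raw read counts per gene that the authors deposited. The submitters' processing notes name featureCounts 1.5.0-p3, HISAT2 2.0.5, CASAVA and build mm10. Not given in the sources used here are the annotation release, the strand setting and the treatment of reads that map to several places. Groups came from the sample titles. The members and gene lists were chosen with earlier results of these data known. Symbols were matched for 24344 of 24379 identifiers, and list genes not found in the table were not analysed here. Exon lengths and overlaps came from GENCODE M21, in which 97.1% of the genes had the deposited coordinates.

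Genes were kept by filterByExpr (minimum count 10), leaving 14360. Library sizes were scaled by TMM and groups compared with edgeR 4.0.16 (glmQLFit, glmQLFTest, R 4.3.3) without covariates. Benjamini-Hochberg adjustment ran over all tested genes, with 0.05 as the threshold. The p-values measure only how these libraries spread, and that spread may be technical. Each SE came from the fold change and its F statistic. Ratios of gene pairs used counts plus 0.5 and a two-sided exact permutation test. Intervals and the floor of 3 counts cover counting error or library spread only, because reads carry no molecular identifiers. The other genes named are the highest and lowest called of each list with a mean of at least 1 CPM. Alternatives were other scalings, DESeq2 1.42.0, limma-voom (limma 3.58.1), other filters, a replicate block and each library left out. Library sizes without the 10 most abundant genes and the transcript length were alternatives chosen after seeing the data.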

Additional observations from a re-analysis of the deposited data

How the results depend on the processing

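The calls of Birc3, Traf1, Traf2 and Malt1 held in each of the 15 alternative fits. With library size alone, which shifts the median of all genes to 0.08, only 1 member was called lower, since Tnip1 lost its call (-0.22). The same count was 1 to 2 when single libraries were left out, where Tnip1 ranged from -0.35 to -0.20. Among members that were never called, the sign changed for Tnfaip3 (0.066 with library size alone, 0.021 with no filter), for Tnip3 (0.012 with library size alone) and for Zc3h12a (-0.0018 with median-of-ratios scaling and with DESeq2, -0.029 with upper-quartile scaling). With single libraries left out Tnfaip3 ranged from -0.070 to 0.085, Tnip3 from -0.19 to 0.070 and Zc3h12a from -0.058 to 0.10. Genes past the threshold among the ubiquitin writers and erasers numbered 7 with library size alone and 7 with a replicate block, and among the RNA decay partners 8 with library size alone, beside 4 and 5 as reported. With single libraries left out they were 2 to 6 and 3 to 8. The causes were not tested. Same-numbered libraries correlated at 0.167, -0.0640 and 0.191 in their deviations, and differently numbered ones at -0.300 to 0.163. With so few libraries these values cannot settle whether the numbers mark pairs. The labels state no pairing, and the main fit used none. The replicate block gave 3619 higher and 3533 lower genes (3223 and 3224 without it) and left 3 members higher and 2 lower. The 29 other named genes gave 434 values, of which 414 kept the call and 20 lost it. Gene counts show neither isoforms nor proteins.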
